A study of Mus musculus with 24 samples.

Results

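Liver libraries of db/+ mice that drank brazzein (2) were set against liver libraries of db/+ mice that drank sucrose (2). Brazzein is a small sweet-tasting plant protein (3M-Brazzein in the series). These are 4 of the 24 libraries of the series, and each library is called a liver below. The libraries were chosen by their titles, which give tissue, drink, genotype and replicate number. All groups were male C57/BL6 mice with a treatment entry of 16 weeks, and the labels give no age, dose or diet. The db/+ mice carry 1 mutant copy of Lepr, the leptin receptor gene, and the db/db mice carry no intact copy. The other livers entered the fit only to estimate the spread and for side-by-side values: 2 db/db livers on brazzein, 2 db/db livers on sucrose, 2 db/db livers on water and 2 db/+ livers on water.

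In the liver, sugar arriving from the gut is phosphorylated and fed into glycolysis, fat synthesis and storage in lipid droplets, while fasting or fat delivery turns on oxidation. Cholesterol is built from acetyl-CoA by the mevalonate pathway, whose genes are driven together by the factor SREBP2 when sterols are scarce. Bile acids are the main end product of cholesterol in the hepatocyte, and in mice they include muricholic acids.

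The separate genotype entry in the labels goes against the title in 12 of the 24 samples, and the titles were followed. Cidea, a lipid droplet gene known from fatty liver, lay between 0 and 0.43 CPM (counts scaled to the size of the library) in the 6 livers titled db/+, against 70.8 to 199.7 CPM in the 6 titled db/db. The 12 livers held 60384569 to 79385804 counts each. The files of both db/+ brazzein livers carry inside them the replicate number of the other one, which leaves their group as it is. The 2 db/+ brazzein livers resembled each other least of the 6 replicate pairs (Pearson r 0.905 of log2 CPM across genes, against 0.932 for the db/+ sucrose livers). Each db/+ brazzein liver was closer to both db/+ sucrose livers than to the other brazzein liver. Those r values were 0.917 and 0.913 for brazzein replicate 1, and 0.922 and 0.917 for brazzein replicate 2. The labels do not say that replicates were separate animals, so p-values measure the spread between these samples.

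With all 12 livers in 1 edgeR quasi-likelihood fit of 6 groups, 4 of 19352 genes passed a Benjamini-Hochberg adjusted p of 0.05 for brazzein against sucrose in db/+ liver, which is 0.0207% of those tested. Of these, 3 were higher (0.0155%) and 1 was lower (0.00517%). At an unadjusted p under 0.05 there were 1693 genes, 808 higher (4.18%) and 885 lower (4.57%), where 968 would be expected with no difference anywhere. DESeq2 on the same libraries called 415 of 17168 genes (2.42%), 203 higher (1.18%) and 212 lower (1.23%), with all 4 of the edgeR genes among them. The count also changed in fits that left out 1 of the 4 livers of the comparison. Such a fit leaves a drink with 1 liver, which gives no spread of its own, and it tests another set of genes. What part of the change comes from this was not tested.

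Cyp2c70 was higher in brazzein than in sucrose livers. It encodes the mouse cytochrome P450 that makes muricholic acids from chenodeoxycholic acid. It had 100.2 and 91.5 CPM in brazzein livers, against 8.68 and 13.1 CPM in sucrose livers. The groups did not overlap, and the lowest brazzein liver lay well above the highest sucrose liver. The log2 fold change was 3.14 (SE 0.31, edgeR adjusted p = 0.0354). The water livers, at 38.9 and 49.98 CPM, lay between both drinks, and neither drink passed the threshold against water for this gene. In db/db livers, Cyp2c70 had 38.0 and 53.3 CPM on brazzein, against 47.5 and 70.3 CPM on sucrose, and those groups overlapped. The difference between genotypes in the brazzein over sucrose log2 was 3.5 (SE 0.41, edgeR adjusted p = 0.0456), and it passed in 5 of 12 fits that left out 1 liver each (adjusted p 0.0302 to 0.109) but not without genes listed near 0 (0.0654). Cyp2c70 belongs to a family of similar genes, and how reads shared between its members were assigned is not stated by the labels. Its call held in 7 of 12 fits that left out 1 liver each. It was lost without sucrose replicate 1 (adjusted p = 0.0991), without either db/+ water liver (0.0548 and 0.0608) and without either db/db water liver (0.105 each).

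The other called genes lay at or close to 0 CPM in 1 of the drinks. Gm26712, a predicted gene named only by its number, had 5.52 and 8.87 CPM in brazzein livers, against 0.121 and 0.125 CPM in sucrose livers (log2 5.85, SE 0.48, edgeR adjusted p = 0.0123). It falls outside the naming rule and was singled out after its values were seen. Its level was also high in db/db brazzein livers, at 4.56 and 7.999 CPM, against 0.0638 and 0.0623 CPM in db/db sucrose livers. Its call was lost without sucrose replicate 1 (adjusted p = 0.085) and without sucrose replicate 2 (0.0594). Cdc42se2, a small effector protein of the GTPase CDC42, had 4.75 and 6.07 CPM in brazzein livers, against 0.0173 and 0 CPM in sucrose livers, with 8.63 and 6.58 CPM on water (adjusted p = 0.0115). Pwp2, a protein of the small-subunit processome that builds ribosomes, was listed at 0 in both brazzein livers, against 9.75 and 10.2 CPM in sucrose livers (adjusted p = 0.000177). The other 8 livers had 10.6 to 14.8 CPM of Pwp2. The calls for Cdc42se2 and Pwp2 held in all 12 fits that left out 1 liver. With only the db/+ livers in the edgeR fit none of the 4 genes passed, with adjusted p-values of 0.0773 for Pwp2, 0.156 for Gm26712, 0.217 for Cyp2c70 and 0.253 for Cdc42se2, and with only the 4 livers of the comparison they were 0.424 to 0.426. The deposited values are estimated counts, and 1329 genes had at least 1 liver under 0.1 of a liver median of 100 or more, so an exact 0 can also be an estimate that failed. That rule also takes genes that are low in 1 genotype, such as Apoa4 and Cidec.

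**Figure D1:**
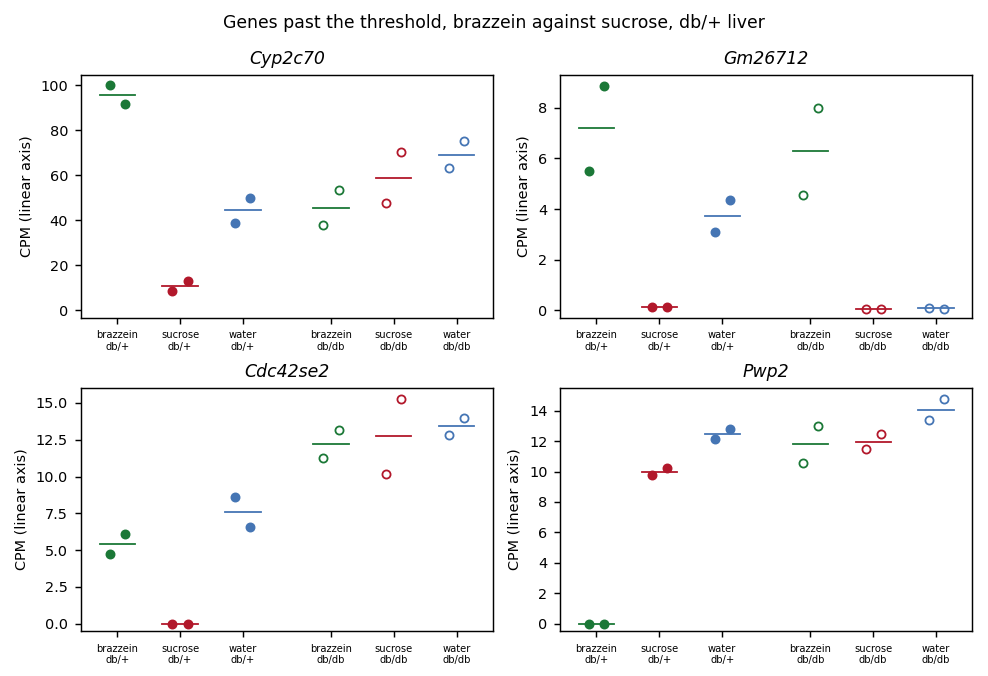
Level of the 4 genes past the threshold in each of the 12 livers, in CPM on a linear axis, for brazzein (green), sucrose (red) and water (blue) in db/+ (filled) and db/db (open) livers; lines are means of 2. Cyp2c70 lies near 100 CPM only in the db/+ brazzein livers, and Pwp2 is listed at 0 only there.

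The 20 official-symbol genes of smallest p whose brazzein and sucrose livers did not overlap, with a mean of at least 1 CPM, had adjusted p-values from 0.0354 to 0.223 in edgeR, and 12 were higher and 8 lower. Cyp2c70 was the only call among them. Orm1, an acute phase plasma protein, had 806.2 and 586.4 CPM on brazzein, against 288.3 and 266.0 CPM on sucrose (log2 1.33, SE 0.18, adjusted p = 0.134). Agxt2, a mitochondrial aminotransferase, had 74.7 and 111.8 CPM on brazzein, against 29.7 and 32.4 CPM on sucrose (log2 1.59, SE 0.23, adjusted p = 0.146). Ces1g, a liver carboxylesterase, had 170.3 and 186.9 CPM on brazzein, against 57.4 and 71.7 CPM on sucrose. Col15a1, a basement membrane collagen, was low in brazzein livers, at 0.986 and 1.66 CPM, against 5.48 and 5.86 CPM in sucrose livers (log2 -2.10, SE 0.30, adjusted p = 0.146). Irf7, a transcription factor of the interferon response, had 26.8 and 25.8 CPM on brazzein, against 48.7 and 52.4 CPM on sucrose (log2 -0.94, SE 0.16, adjusted p = 0.222). Its water livers, at 27.4 and 26.3 CPM, lay beside the brazzein livers. Serpine2, a secreted protease inhibitor, had 7.71 and 8.92 CPM on brazzein, against 1.85 and 1.78 CPM on sucrose, with 7.36 and 9.73 CPM on water.

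The rest of the 20 genes spanned several functions. Mylk, myosin light chain kinase, had 45.3 and 52.7 CPM on brazzein, against 2.47 and 2.15 CPM on sucrose, with 15.5 and 45.5 CPM on water (log2 4.4, SE 0.58, edgeR adjusted p = 0.116). Its db/db livers had 28.5 and 33.0 CPM on brazzein, against 2.23 and 3.10 CPM on sucrose, so both genotypes had low sucrose livers. Ildr2, a membrane protein of the endoplasmic reticulum, had 33.9 and 57.97 CPM on brazzein, against 8.51 and 6.69 CPM on sucrose, with 5.68 and 10.9 CPM on water. Its db/db livers had 8.37 and 13.5 CPM on brazzein, against 35.7 and 47.5 CPM on sucrose, the opposite order. The difference between genotypes for Ildr2 was 4.52 on the log2 scale (edgeR adjusted p = 0.068). Bgn, the matrix proteoglycan biglycan, had 16.0 and 21.6 CPM on brazzein, against 50.3 and 73.96 CPM on sucrose, with 46.3 and 72.5 CPM on water. For Bgn the brazzein livers, not the sucrose livers, stood apart from water. Tmem86a, a lysoplasmalogenase, had 9.99 and 7.08 CPM on brazzein, against 30.5 and 28.5 CPM on sucrose, with 8.31 and 9.80 CPM on water. Asgr2, a subunit of the hepatocyte asialoglycoprotein receptor, had 229.0 and 285.8 CPM on brazzein, against 156.6 and 153.4 CPM on sucrose. Gstm6, a glutathione transferase, had 82.4 and 69.7 CPM on brazzein, against 33.4 and 41.6 CPM on sucrose, with 77.1 and 65.4 CPM on water. The levels of Exoc3l4, Fhit, Wdr25, Meltf and Lncbate1 were under 5 CPM in all 4 livers.

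Of the genes of fat storage and lipid handling, 5 are described by their levels, and edgeR called none of them. Apoa4, an apolipoprotein known to track liver triglyceride, had 167.9 and 501.9 CPM on brazzein, against 5992 and 2426 CPM on sucrose. Its log2 fold change was -3.65 (SE 0.66, edgeR adjusted p = 0.223; DESeq2 adjusted p = 1.19e-05). The water livers had 192.3 and 295.1 CPM of Apoa4, close to the brazzein livers. Cidec, which enlarges lipid droplets, had 27.9 and 10.5 CPM on brazzein, against 87.0 and 82.4 CPM on sucrose (log2 -2.14, SE 0.42, edgeR adjusted p = 0.232; DESeq2 adjusted p = 0.00083). Its water livers, at 18.5 and 28.4 CPM, were again near the brazzein ones. Mogat1, an acyltransferase of triglyceride synthesis, had 1.60 and 1.01 CPM on brazzein, against 4.76 and 3.79 CPM on sucrose. Cd36, a fatty acid uptake receptor, had 76.3 and 89.2 CPM on brazzein, against 231.1 and 147.5 CPM on sucrose. Fgf21, a hormone that the liver secretes under carbohydrate load or fasting, had 1.92 and 4.44 CPM on brazzein, against 13.5 and 20.5 CPM on sucrose. In each of these 5 genes the brazzein and sucrose livers did not overlap. The 5 were chosen with earlier results of these data known. Over all genes tested, 18.6% had both brazzein livers below both sucrose livers and 16.1% had both above. Of the 31 lipid droplet and triglyceride storage genes listed, 13 had both below and 2 had both above.

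Genes that respond to carbohydrate had log2 values of both signs, and edgeR called none of those described here. Thrsp, a lipogenic gene induced by carbohydrate, had 20.9 and 67.7 CPM on brazzein, against 10.6 and 8.36 CPM on sucrose. Its log2 fold change was 2.22 (edgeR adjusted p = 0.318, DESeq2 adjusted p = 0.00897). That log2 was 1.13 without brazzein replicate 2 and 2.84 without brazzein replicate 1. Mlxipl, which encodes the carbohydrate-response factor ChREBP, had 58.9 and 39.8 CPM on brazzein, against 92.3 and 102.0 CPM on sucrose. Fasn, fatty acid synthase, had 55.3 and 50.5 CPM on brazzein, against 38.9 and 34.4 CPM on sucrose (log2 0.53, SE 0.27, edgeR adjusted p = 0.623). Lepr had 1.90 and 2.77 CPM on brazzein, against 14.0 and 18.9 CPM on sucrose, and 2.43 and 6.65 CPM on water (log2 -2.81, SE 0.57, edgeR adjusted p = 0.242; DESeq2 adjusted p = 0.000253). Lepr counts do not tell the normal from the mutant transcript. Of the rest of the 24-gene panel, Khk, Pklr, Pck1, Scd1, Pparg, Igfbp1, Igfbp2 and Cidea had edgeR adjusted p-values between 0.742 and 0.988.

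**Figure D2:**
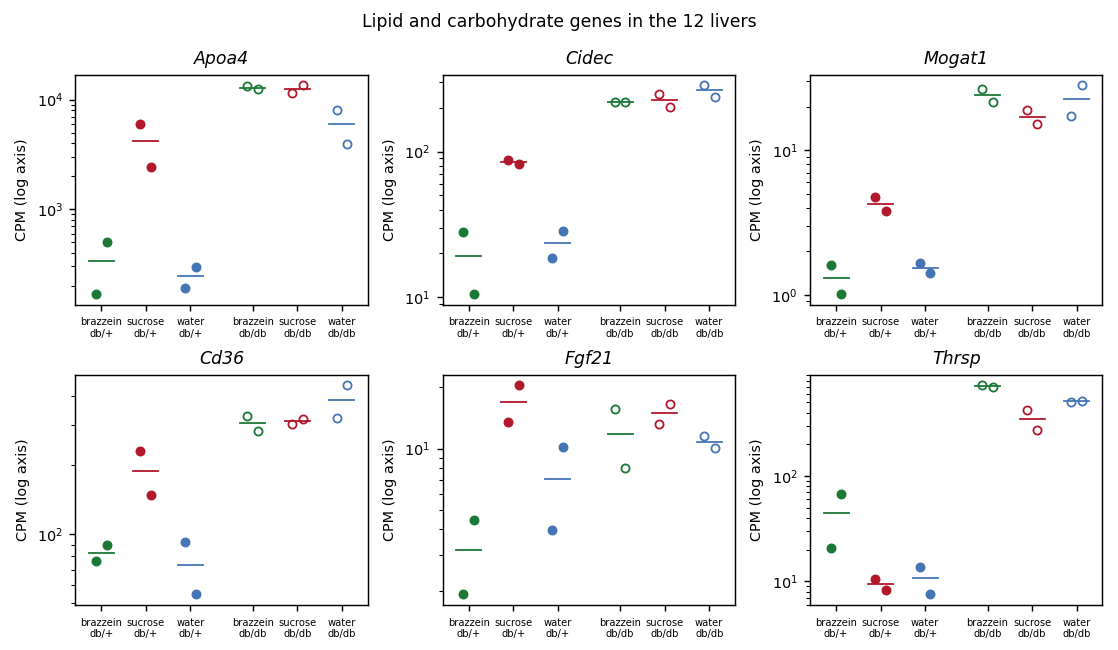
Level of 6 lipid and carbohydrate genes in each of the 12 livers, in CPM on a log axis, for brazzein (green), sucrose (red) and water (blue) in db/+ (filled) and db/db (open) livers; lines are means of 2. Both db/+ brazzein livers lie below both db/+ sucrose livers for Apoa4, Cidec, Mogat1, Cd36 and Fgf21, and above them for Thrsp.

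The 36 gene lists held 806 genes tested, and edgeR called none of them for brazzein against sucrose. At an unadjusted p under 0.05, 91 of the 806 were higher and 60 lower, against 4.18% higher and 4.57% lower of all genes tested. DESeq2 called at least 1 member in 21 of the 36 lists, and it called 2.42% of all 17168 genes. A list of many genes can hold 1 call at that share. Beside each list stand the values over all genes tested: a median log2 of 0, 49.3% above 0, 16.1% with both brazzein livers above both sucrose livers and 18.6% with both below.

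Cholesterol synthesis had the highest median of the 25 pathway lists. The median log2 over its 24 genes was 1.10, 22 of 24 were above 0, and in 15 of 24 both brazzein livers lay above both sucrose livers, with none below. At an unadjusted p under 0.05, 10 were higher and 0 lower. Without any 1 of the 4 livers of the comparison the median lay between 0.96 and 1.13. Leaving out a liver of another group can hardly move this value, and it gave 1.09 or 1.10. Against water the medians were 0.11 on brazzein and -0.65 on sucrose. In db/db livers the brazzein over sucrose median was -0.31, with 6 of 24 above 0. DESeq2 called 1 of the 24 genes, Idi1 (adjusted p = 0.0487).

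Idi1, an isomerase of the isoprenoid unit, had 9.61 and 9.69 CPM on brazzein, against 3.39 and 3.39 CPM on sucrose, with 11.2 and 7.96 CPM on water (log2 1.51, SE 0.41, edgeR adjusted p = 0.386). Cyp51, the lanosterol demethylase, had 36.7 and 27.1 CPM on brazzein, against 12.4 and 13.03 CPM on sucrose (log2 1.32, SE 0.37, adjusted p = 0.407). Tm7sf2, a sterol reductase, had 67.6 and 102.3 CPM on brazzein, against 21.96 and 31.0 CPM on sucrose. Sqle, squalene epoxidase, a rate-limiting enzyme, had 7.84 and 6.28 CPM on brazzein, against 2.20 and 2.14 CPM on sucrose. Insig1, which retains SREBP factors in the ER, had 66.9 and 79.4 CPM on brazzein, against 29.1 and 27.6 CPM on sucrose. In all 5 the groups did not overlap. Both brazzein livers lay above both sucrose livers in 15 of the 24 listed genes, against 16.1% of all genes tested. Hmgcs1, Srebf2 and Sc5d lay near 0 on the log2 scale, at -0.05, 0.11 and -0.03.

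**Figure D3:**
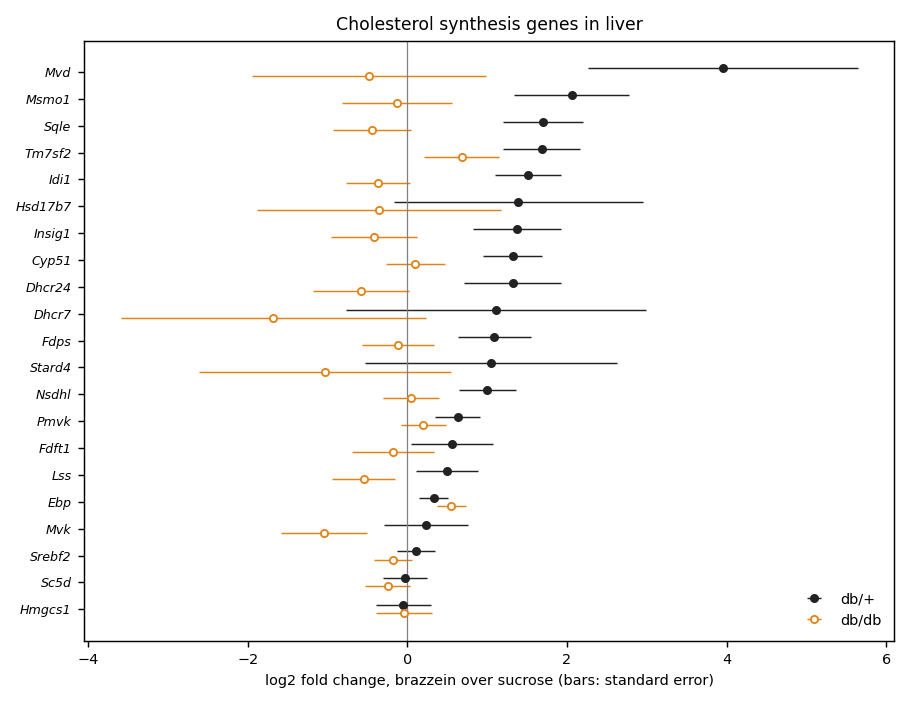
Brazzein over sucrose log2 fold change of 21 of the 24 cholesterol synthesis genes, in db/+ (filled) and db/db (open) livers. Bars are approximate standard errors, computed from the quasi-likelihood F. In db/+ livers 19 of 21 points lie above 0, and in db/db livers 5 of 21 do.

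The stretch before the transcription start is shown for Cyp2c70, the only call among the 20 genes of smallest p described above. The called genes Cdc42se2, Pwp2 and Gm26712 are not shown. It is also shown for the 3 cholesterol genes of smallest p that had an entry. The promoters of that pathway are known to carry a CCAAT box, bound by NF-Y, beside SREBP2 elements. The 250 bases before each start are from RefSeq, GRCm38.p6, an earlier build than the GRCm39 named in the submitters' processing notes. Cyp2c70 is at chr19:40187287-40187536 on the minus strand, Idi1 at chr13:8885356-8885605 on the plus strand, Cyp51 at chr5:4104698-4104947 on the minus strand and Tm7sf2 at chr19:6067851-6068100 on the minus strand. Capitals mark CCAAT, or ATTGG where it lies on the other strand.
Cyp2c70: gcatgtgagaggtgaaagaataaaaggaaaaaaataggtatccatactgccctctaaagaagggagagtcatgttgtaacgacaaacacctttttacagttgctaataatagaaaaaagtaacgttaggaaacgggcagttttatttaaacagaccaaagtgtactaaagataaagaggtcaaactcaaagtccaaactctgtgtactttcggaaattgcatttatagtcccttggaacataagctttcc
Idi1: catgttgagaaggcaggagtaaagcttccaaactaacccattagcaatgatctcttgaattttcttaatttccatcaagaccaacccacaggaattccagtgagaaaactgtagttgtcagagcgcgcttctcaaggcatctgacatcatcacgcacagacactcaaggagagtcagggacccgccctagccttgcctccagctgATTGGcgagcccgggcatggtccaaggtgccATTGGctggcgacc
Cyp51: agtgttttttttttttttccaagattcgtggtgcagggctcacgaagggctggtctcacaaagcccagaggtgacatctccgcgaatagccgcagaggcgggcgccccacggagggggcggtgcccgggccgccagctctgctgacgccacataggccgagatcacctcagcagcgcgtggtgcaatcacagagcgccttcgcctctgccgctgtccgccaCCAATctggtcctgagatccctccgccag
Tm7sf2: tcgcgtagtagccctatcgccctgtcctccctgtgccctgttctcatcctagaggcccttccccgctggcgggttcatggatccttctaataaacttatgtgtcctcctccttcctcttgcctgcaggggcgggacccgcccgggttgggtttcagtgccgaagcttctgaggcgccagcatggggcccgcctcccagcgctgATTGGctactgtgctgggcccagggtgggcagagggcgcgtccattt
CCAAT, on either strand, was found in 37.49% of the 27025 genes with an entry and in 16 of the 16 cholesterol synthesis genes that had one. It lies 2 times before the Idi1 start, at 45 and 14 bases, and 1 time before Cyp51 and Tm7sf2, at 29 and 47 bases. It is not in the Cyp2c70 window. The sterol element written TCACNCCAC, on either strand, was found in 1.22% of genes with an entry and in 1 of the 16, Hmgcs1. A match is a description of the letters and says nothing of binding in these livers.

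Fatty acid oxidation and ketone body synthesis had a median log2 of -0.32 over 40 genes, with 7 above 0. Both brazzein livers lay below both sucrose livers in 18 of the 40 and above in 1. The median was -0.12 without sucrose replicate 1 and -0.46 without sucrose replicate 2. Ehhadh, a peroxisomal enzyme and PPARα target, had 965.2 and 539.3 CPM on brazzein, against 3087 and 1788 CPM on sucrose (log2 -1.70, SE 0.42, edgeR adjusted p = 0.334). Acot1, an acyl-CoA thioesterase, had 193.6 and 116.5 CPM on brazzein, against 450.5 and 363.9 CPM on sucrose. Ucp2, a mitochondrial carrier, had 19.1 and 11.2 CPM on brazzein, against 32.4 and 40.6 CPM on sucrose. Cpt1a, the gate of mitochondrial fat entry, was the 1 member with both brazzein livers above both sucrose livers. It had 254.4 and 496.7 CPM on brazzein, against 191.5 and 91.0 CPM on sucrose (log2 1.41, SE 0.43, edgeR adjusted p = 0.434). In db/db livers the list's median was 0.31.

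In db/db livers the drinks overlapped for 2 of the fat storage genes: Apoa4 had 13200 and 12470 CPM on brazzein, against 11410 and 13620 CPM on sucrose, and Cidec had 218.6 and 220.2 CPM, against 248.4 and 203.2 CPM. The difference between genotypes did not pass for either (edgeR adjusted p = 0.302 for Apoa4 and 0.353 for Cidec).

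Lipid droplet and triglyceride storage genes had a median log2 of -0.33 over 31 genes, with 8 above 0, 13 below in both brazzein livers and 2 above. Fatty acid synthesis genes had a median of -0.23 over 25 genes, with 11 above 0. Glycolysis and fructose use had a median of -0.16 over 30 genes, and 0.04 without sucrose replicate 1. Ldha, lactate dehydrogenase, had 813.7 and 668.3 CPM on brazzein, against 1706 and 1157 CPM on sucrose (log2 -0.95, SE 0.20, edgeR adjusted p = 0.263).

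Bile acid synthesis and transport had a median log2 of 0.52 over 21 genes, with 17 above 0. Cyp27a1, the first enzyme of the acidic bile acid pathway, had 372.4 and 444.3 CPM on brazzein, against 206.7 and 227.1 CPM on sucrose (log2 0.91, SE 0.19, edgeR adjusted p = 0.255; DESeq2 adjusted p = 0.0179). Cyp8b1, the sterol hydroxylase that makes cholic acid, had 335.7 and 290.3 CPM on brazzein, against 595.5 and 592.0 CPM on sucrose (log2 -0.92, SE 0.32, adjusted p = 0.487). Slc10a2, a bile acid carrier that is not a member of this list, had 4.29 and 7.86 CPM on brazzein, against 1.25 and 1.46 CPM on sucrose. Cyp7a1, the rate-limiting enzyme of bile acid synthesis, had 1.51 and 2.24 CPM on brazzein, against 1.16 and 1.04 CPM on sucrose (adjusted p = 0.711). The list's median was 0.07 without brazzein replicate 2 and 0.85 without sucrose replicate 1.

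Drug and amino acid metabolism genes were mostly above 0. Xenobiotic metabolism had a median log2 of 0.51 over 45 genes, 37 above 0, with 18 higher and 2 lower at an unadjusted p under 0.05. Ces2a, a carboxylesterase, had 533.0 and 501.6 CPM on brazzein, against 244.2 and 290.7 CPM on sucrose. Amino acid catabolism and the urea cycle had a median of 0.53 over 27 genes, 23 above 0. The median was 0.07 without brazzein replicate 2 and 1.10 without brazzein replicate 1. Ass1, a urea cycle enzyme, had 3221 and 7185 CPM on brazzein, against 2549 and 3107 CPM on sucrose. Endoplasmic reticulum chaperones and the unfolded protein response had a median of 0.40 over 26 genes, with 25 above 0 and both brazzein livers above both sucrose livers in 15.

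Interferon response and antigen presentation genes had a median log2 of -0.37 over 32 genes, with 5 above 0, and both brazzein livers below both sucrose livers in 12. Without sucrose replicate 2 the median was -0.13. Heat shock genes had a median of -0.38 over 13 genes, with 1 above 0. Macrophage and Kupffer cell markers, 20 genes of the resident and recruited phagocytes, had a median of -1.07 with 1 above 0, but it was -0.11 without sucrose replicate 2. Their summed level was 162.3 and 120.1 CPM on brazzein, against 156.7 and 389.0 CPM on sucrose. Thus 1 sucrose liver stood far above the other db/+ livers. In db/db livers the sum was 224 and 285.1 CPM on brazzein, against 446.3 and 408 CPM on sucrose. Clec4f, a Kupffer cell receptor, had 36.3 and 26.9 CPM on brazzein, against 34.3 and 95.6 CPM on sucrose. Stellate cell and matrix markers had a median of -0.63 over 19 genes, with 0 above 0, and -0.40 without sucrose replicate 2. Their summed level was 291.9 and 284.1 CPM on brazzein, against 423.7 and 484.0 CPM on sucrose. In a bulk sample, fewer cells of a type and less RNA per cell cannot be told apart. The part of these cells in the other differences was not tested. Hepatocyte markers had a median of 0.33 over 15 genes, with 12 above 0. Endothelial markers had a median of -0.13 over 15 genes, and -0.73 without brazzein replicate 1 and 0.21 without brazzein replicate 2. Lymphocyte markers had -0.45 over 19 genes (-0.79 without brazzein replicate 1, 0.14 without sucrose replicate 2). Neutrophil markers had -0.52 over 10 (-1.55 without brazzein replicate 1, -0.16 without sucrose replicate 2). Cholangiocyte markers had 0.27 over 7 (0.50 without brazzein replicate 2, -0.17 without sucrose replicate 2). Mitochondrial ribosomal RNA took up 0.867% and 0.578% of counts on brazzein, against 0.912% and 1.29% on sucrose.

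Of the other lists, acute phase genes had a median log2 of 0.19 over 28 genes, with 22 above 0, and complement and coagulation had 0.19 over 29, with 21 above 0. C9, a pore-forming complement protein, had 270.7 and 297.5 CPM on brazzein, against 146.4 and 139.9 CPM on sucrose (log2 0.99, SE 0.23, edgeR adjusted p = 0.31). Respiratory chain subunits had a median of 0.15 over 53 genes, against 0.71 in db/db livers. Cytosolic ribosomal proteins had 0.07 over 78 (-0.06 to 0.21 without 1 liver), against 0.62 in db/db livers. Across genes, the db/db log2 change tended to be lower for longer transcripts (Spearman -0.46, against -0.09 in db/+ livers). The part of transcript length in these medians was not tested. Apolipoproteins and lipoprotein assembly had 0.10 over 20. Gluconeogenesis and glycogen had 0.21 over 20, and -0.07 without brazzein replicate 2. Insulin and nutrient signalling had 0.31 over 21, and -0.18 without brazzein replicate 2. The cell cycle had 0.17 over 32, and -0.08 without sucrose replicate 1.

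**Figure D4:**
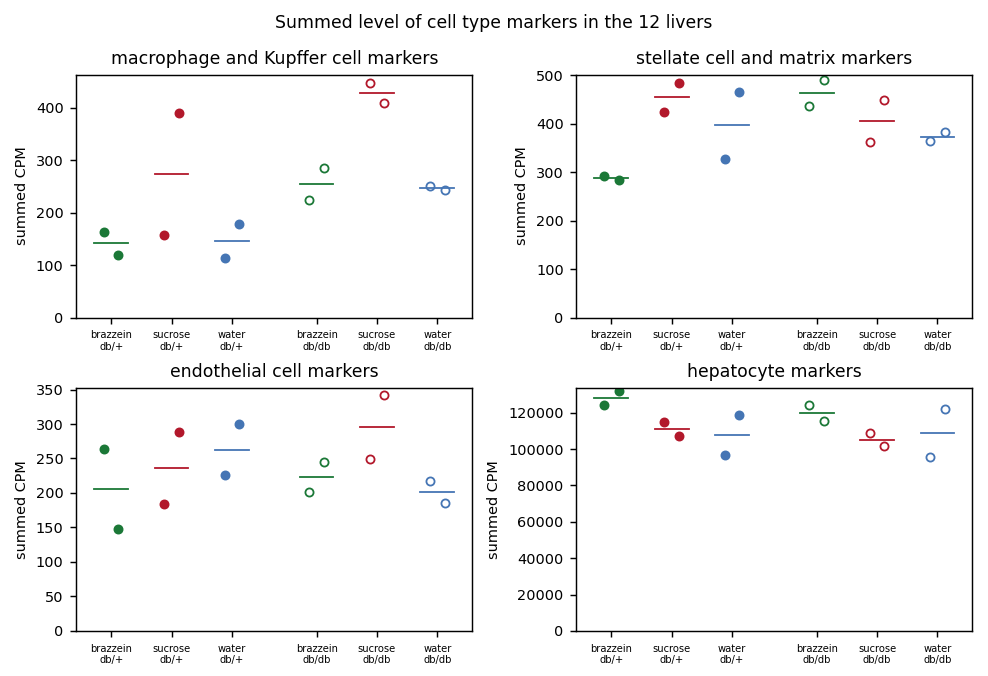
Summed CPM of the markers of 4 liver cell types in each of the 12 livers, for brazzein (green), sucrose (red) and water (blue) in db/+ (filled) and db/db (open) livers; lines are means of 2. The macrophage sum reaches 389.0 CPM in 1 db/+ sucrose liver, against 156.7 in the other. It is 446.3 and 408 CPM in the db/db sucrose livers.

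**Figure D5:**
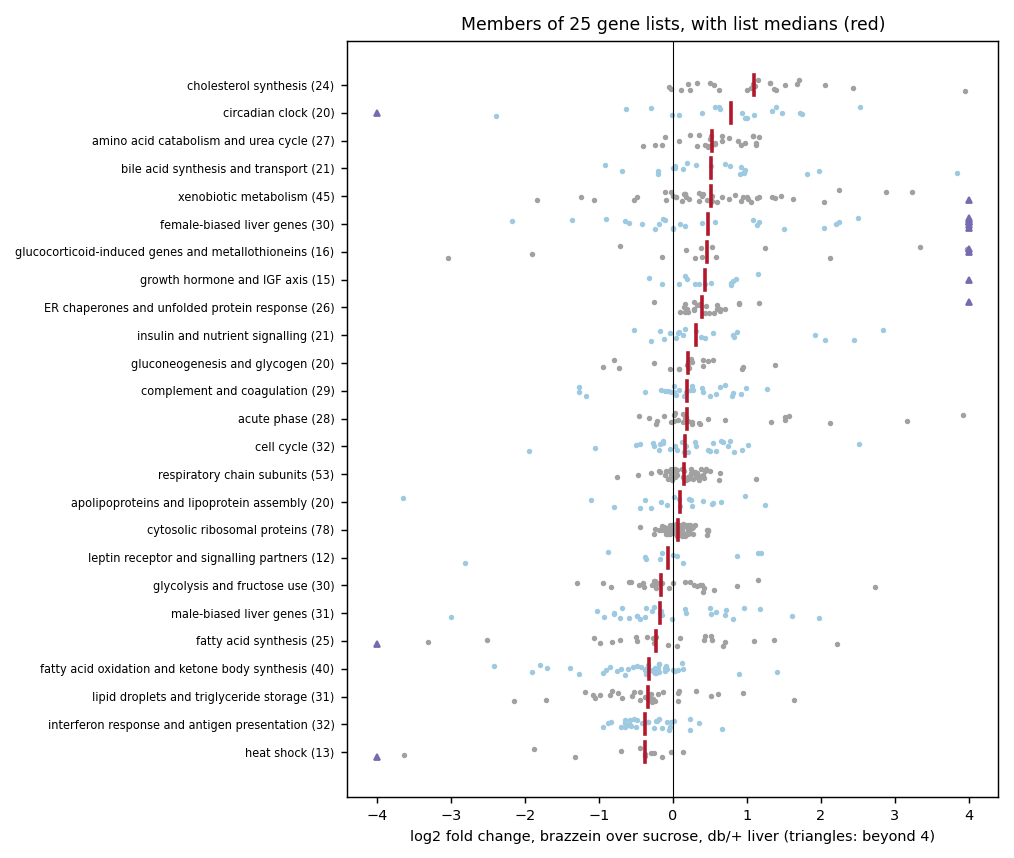
Brazzein over sucrose log2 fold change, db/+ liver, of each member of 25 gene lists (points; triangles at the edge lie beyond 4) with the list median in red and the number of members tested. Cholesterol synthesis has the highest median, 1.10, and heat shock the lowest, -0.38.

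The other comparisons with water in db/+ liver share libraries with this one and are given only side by side. Brazzein against water called 1 of 19352 genes (0.00517%), Pwp2. Sucrose against water called 3 (0.0155%): Cdc42se2, Gm26712 and Kbtbd2, the last 2 named after their values were seen. For Kbtbd2, a Kelch-type adaptor of a ubiquitin ligase, the sucrose livers had 11.2 and 12.6 CPM, against a listing of 0 in both water livers. The test of whether the brazzein against sucrose difference was another in db/+ than in db/db liver called 13 genes (0.0672%), 10 of them near 0 in a library. In db/db livers the log2 change tended to be lower for longer transcripts (Spearman -0.46 across 12564 genes), against -0.09 in db/+ livers. Counts over coverage were the measure of length, and this is a description across genes with no test.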

How the data were processed

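Poly(A) RNA was sequenced from the livers, per the labels' protocols, with a kit not named as directional, so a gene and an antisense partner were not told apart. The submitters' processing notes name bcl2fastq and the build GRCm39; no source used here names the aligner, counter or annotation. The deposited per-sample files hold expected counts (whole numbers that keep a nearly fixed ratio to coverage), which were rounded. The coverage signal in the authors' series table was used only to check that ratio and to estimate length. The 12 brain files were not used.

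Counts of 12 livers were fitted with edgeR 4.0.16 in R 4.3.3: TMM factors, filterByExpr by group, 1 coefficient per group, the quasi-likelihood test and Benjamini-Hochberg adjustment over 19352 genes at 0.05. DESeq2 1.42.0 was an alternative. CPM values are scaled by TMM factors. Each SE is the absolute log2 fold change over the square root of the quasi-likelihood F. It is an approximate standard error and not an estimate from the fit itself. The fit was also run on simulated counts with set changes. Recovery was required only for large changes at a small set spread, so the run does not show what is found at the spread of these livers. Genes were named by a rule: a 24-gene panel, calls and the smallest p to 20 genes without overlap, a mean of at least 1 CPM and no liver near 0, and the leading members of each list. The samples, genes and lists were chosen with earlier results of these data known.

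Replicate numbers were not taken as pairs: the correlation of deviations from group means between same-numbered livers ran from -0.105 to 0.092 over 15 pairs of groups. Values of some members of the panel and lists are not reported here; counts and medians over the lists include them.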

Additional observations from a re-analysis of the deposited data

Results flagged for a closer look

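The brazzein over sucrose log2 differed between genotypes for 4 of the genes named here, in a test of the difference itself within the 12-liver edgeR fit. For Pwp2 the log2 in db/+ minus that in db/db liver was -12.41 (adjusted p = 0.000452), with 0 CPM in both db/+ brazzein livers. For Wdr25 it was -10.7 (adjusted p = 0.0039). Wdr25, a WD-repeat gene, had 0.108 and 0.179 CPM on brazzein, against 2.65 and 2.25 CPM on sucrose in db/+ livers, and 3.96 and 2.62 CPM on brazzein, against 0.0255 and 0.0374 CPM on sucrose in db/db livers. For Cdc42se2 the difference was 9.19 (adjusted p = 0.0103), with 11.2 and 13.1 CPM on brazzein, against 10.2 and 15.3 CPM on sucrose in db/db livers. For Cyp2c70 it was 3.5 (adjusted p = 0.0456), with an adjusted p of 0.0654 without genes listed near 0 and of 0.0302 to 0.109 in the 12 fits without 1 liver, 5 of which called it. The calls for Pwp2, Wdr25 and Cdc42se2 held in all 12 of those fits. The fitted sizes for Pwp2, Wdr25 and Cdc42se2 rest on livers at or near 0 CPM and are no bound.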

How the results depend on the processing

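The main count of 4 genes was the same with RLE factors and in the replicate block, and 5 with no filter on low counts. It was 415 with DESeq2, 2 in the db/+ livers only, 0 in the 4 livers of the comparison only (839 at an unadjusted p under 0.05), 2 without genes listed near 0, and 7 without both db/db brazzein livers, an alternative chosen after seeing the data. Leaving out 1 liver gave 4 to 105. Brazzein against water (1 gene) gave 164 with DESeq2, 2 in the db/+ livers only, 0 in 4 livers, 0 without genes near 0, and 2 without the db/db brazzein livers, and 1 to 94 without 1 liver. Sucrose against water (3 genes) gave 216 with DESeq2, 0 in the replicate block, 0 in the db/+ livers only, 0 in 4 livers, 0 without genes near 0, and 0 to 46 without 1 liver. The difference between genotypes (13 genes) gave 433 with DESeq2, 1 without genes near 0, and 12 to 162 without 1 liver. The 2 genes called for brazzein against sucrose in the db/+ livers only are none of the main 4 (0 shared), and both were lower and near 0 in a library. The cause of these changes was not tested.

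The replicate block gave 4 genes for brazzein against sucrose, 1 for brazzein against water and 12 for the difference between genotypes; same-numbered livers share only a number. Cyp2c70 had an adjusted p of 0.217 in the db/+ livers only and 0.424 in the 4 livers only. Across all alternatives, no named gene that was called changed sign, 2045 gene values kept direction and side of the threshold, 65 gained a call and 15 lost one, and 15 values of 11 uncalled genes changed sign, all without 1 liver. The log2 without 1 liver ran over -0.47 to 0.09 for Pklr, -0.53 to 0.67 for Pck1, -0.93 to 1.74 for Igfbp1, -7.18 to 0.92 for Cidea, -0.47 to 3.02 for Lcn2, -0.11 to 3.75 for Pik3r1, -0.10 to 1.88 for Il6ra, 0 to 6.49 for Plin1, -0.77 to 0.71 for Car3, -0.24 to 1.26 for Cela2a and -0.88 to 1.03 for Vil1. Of list medians, 638 moved by less than the spread and 82 by more, and 27 values over 15 lists came to 0 or to the other sign. These tallies include fits without a liver outside the comparison, which can hardly move a log2 value or a list median. At 2 livers a group, genes past neither threshold are not shown to be alike.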

Other observations

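Glucocorticoid-induced genes and metallothioneins had a summed level of 2474 and 6316 CPM on brazzein, against 2138 and 3004 CPM on sucrose and 1524 and 3323 CPM on water in db/+ livers, and 2664 and 6990 CPM on brazzein in db/db livers. Mt1, a metallothionein, had 69.8 and 1201 CPM on brazzein, against 34.5 and 90.6 CPM on sucrose, and Mt2 had 18.2 and 708.7 CPM, against 18.9 and 27.6 CPM. Fkbp5, a glucocorticoid-induced chaperone, was less split, at 91.3 and 116.4 CPM on brazzein, against 36.5 and 50.6 CPM on sucrose (log2 1.25, SE 0.36, edgeR adjusted p = 0.409). The list had a median log2 of 0.46 over 16 genes, and 0.17 without brazzein replicate 2. Male-biased liver genes had a summed level of 67850 and 20820 CPM on brazzein, against 58190 and 59950 CPM on sucrose.

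Clock genes had a median log2 of 0.79 over 20 genes, with 15 above 0, and 0.47 without brazzein replicate 2 and 1.33 without sucrose replicate 1. Dbp, a clock output factor, had 89.9 and 139.5 CPM on brazzein, against 54.2 and 14.7 CPM on sucrose, while the water livers had 89.2 and 6.73 CPM. Arntl, the partner of CLOCK, had 0.538 and 0.669 CPM on brazzein, against 1.89 and 4.47 CPM on sucrose. Clock had 0.0359 and 0.0652 CPM on brazzein, against 26.5 and 10.7 CPM on sucrose, and 0.59 and 0.115 CPM on water. The hour of tissue collection is not given in the sources used here.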
